A study of Mus musculus with 6 samples.

Results

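Genes of the surrogate light chain and of V(D)J recombination, 6 in all, were followed in spleen RNA of mice with and without a cyclin D3 knock-in: Vpreb1, Vpreb3, Igll1, Rag1, Rag2 and Dntt. They were taken by symbol from the GENCODE M21 mouse annotation, and all 6 were among the 24906 genes of the deposited table. Vpreb3 was chosen by its lower normalized counts in the knock-in group in these same libraries, so its difference between the groups is given as a description with no test. The other 5 were added as genes of the same pathway. Only 2 of the 6, Vpreb3 and Dntt, reached a normalized count of 10 in 3 or more libraries and entered the test across genes.

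The D3TA group held 3 C57BL/6J mice with a CRISPR/Cas9-made change in Ccnd3 that replaces threonine 283 of cyclin D3 with alanine. The WT group held 3 wild-type mice of matched age, and both groups were 12 to 16 months old. The design text says that the line is kept as heterozygotes and that older carriers develop severe myeloproliferative neoplasm, and it does not state the zygosity of the sequenced mice. The change is in every cell of the animal and is not limited to B cells, and each library is polyadenylated RNA of unsorted spleen cells from 1 mouse.

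During B cell development in the bone marrow, the RAG1 and RAG2 proteins together cut DNA beside the V, D and J segments of the immunoglobulin heavy chain genes, and terminal deoxynucleotidyl transferase, made from Dntt, adds untemplated bases at the joints. A new heavy chain is first tested with a surrogate light chain made of VPREB1 (or its close copy VPREB2) and lambda5, the product of Igll1, and this pre-B cell receptor drives a burst of division that in mice needs cyclin D3. RAG proteins then rearrange the light chain genes, and surrogate light chain, RAG and terminal transferase transcripts are lost as cells mature. VPREB3 is a related protein of B lineage cells that binds immunoglobulin chains inside the cell, and its transcript is not limited to precursors. The adult mouse spleen holds mainly mature B cells, so transcripts of precursors are scarce there.

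Upstream sequence is shown for the 2 members that passed the filter, Vpreb3 and Dntt, and for Igll1 as a gene used by precursors. Each line gives the 250 bases before the RefSeq start (GRCm38.p6), 5′ to 3′ on the gene's own strand, with motif matches in capitals. Vpreb3 lies at chr10:75948050-75948299 on the plus strand, a RefSeq start inside the longer GENCODE interval given with its values, Dntt at chr19:41029025-41029274 on the plus strand and Igll1 at chr16:16863986-16864235 on the minus strand.
Vpreb3: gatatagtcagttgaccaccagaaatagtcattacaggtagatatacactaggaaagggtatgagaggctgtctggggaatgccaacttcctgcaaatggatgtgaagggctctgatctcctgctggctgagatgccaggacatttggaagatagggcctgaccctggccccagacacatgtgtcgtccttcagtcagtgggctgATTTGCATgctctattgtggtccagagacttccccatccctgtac
Dntt: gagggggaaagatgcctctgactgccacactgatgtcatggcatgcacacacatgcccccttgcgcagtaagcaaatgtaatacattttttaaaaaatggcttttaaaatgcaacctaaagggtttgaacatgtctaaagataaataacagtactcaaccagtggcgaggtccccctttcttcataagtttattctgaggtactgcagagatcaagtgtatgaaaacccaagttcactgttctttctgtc
Igll1: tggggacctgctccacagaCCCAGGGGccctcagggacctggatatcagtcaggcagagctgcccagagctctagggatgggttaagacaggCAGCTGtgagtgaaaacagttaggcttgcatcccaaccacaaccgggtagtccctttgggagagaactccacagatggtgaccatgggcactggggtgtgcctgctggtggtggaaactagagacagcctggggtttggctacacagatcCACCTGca
A set of 4 motifs was searched on both strands of 300 bases, 250 before and 50 after each start: the octamer ATTTGCAT, bound by OCT factors and known from immunoglobulin promoters, the E-boxes CAGGTG and CAGCTG, bound by E proteins such as E2A, and the EBF core CCCNNGGG. No 2 matches overlapped. Vpreb3 was the member with an octamer, 45 bases before its start, and 1.74% of all 32851 RefSeq promoters hold one. CAGGTG was found in 3 of the 6 members (Vpreb1, Igll1 and Rag1) and in 20.2% of all promoters, and CAGCTG in 2 (Igll1 and Rag1) and in 16.3%. The EBF core was found in Igll1 and in 13.7% of all promoters. Rag2 and Dntt held none of these letters in this window. These are matches of letters and no measure of binding.

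The values are normalized counts, reads per gene divided by 1 size factor per library. The libraries held 15545775 to 17482873 reads in D3TA and 14944622 to 19456838 in WT. WT-2 stood apart from the other 5: it listed 8449 genes at 0, against 3193 to 5170 elsewhere, and 947 genes with 1 to 5 reads, against 3084 to 4350 elsewhere. Genes with at least 20 reads in 1 library and at most 10 in the other 5 together numbered 74 for WT-2 and 9 to 19 for the other libraries. Hemoglobin transcripts took over 5% of reads in D3TA-1, D3TA-2 and WT-3, and Y-linked transcripts were abundant in D3TA-3 and WT-1. Where 3 values are given for a group, they are its libraries 1, 2 and 3. Ccnd3 itself had normalized counts of 7842, 3509 and 2424 in the D3TA libraries, against 3086, 3064 and 2433 in the WT libraries, and since the edit changes a codon these values do not check the genotype labels.

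B cell transcripts were abundant in all 6 libraries: Cd79a, a signalling chain of the B cell receptor, was at 2766 to 7523 in D3TA and at 17043 to 22915 in WT. The transcripts that define B cell precursors, Vpreb1 and Igll1, were nearly absent and together had 2 to 17 reads per D3TA library and 0 to 14 per WT library. In bulk RNA, fewer cells of a type and less RNA per cell cannot be told apart.

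**Figure D1:**
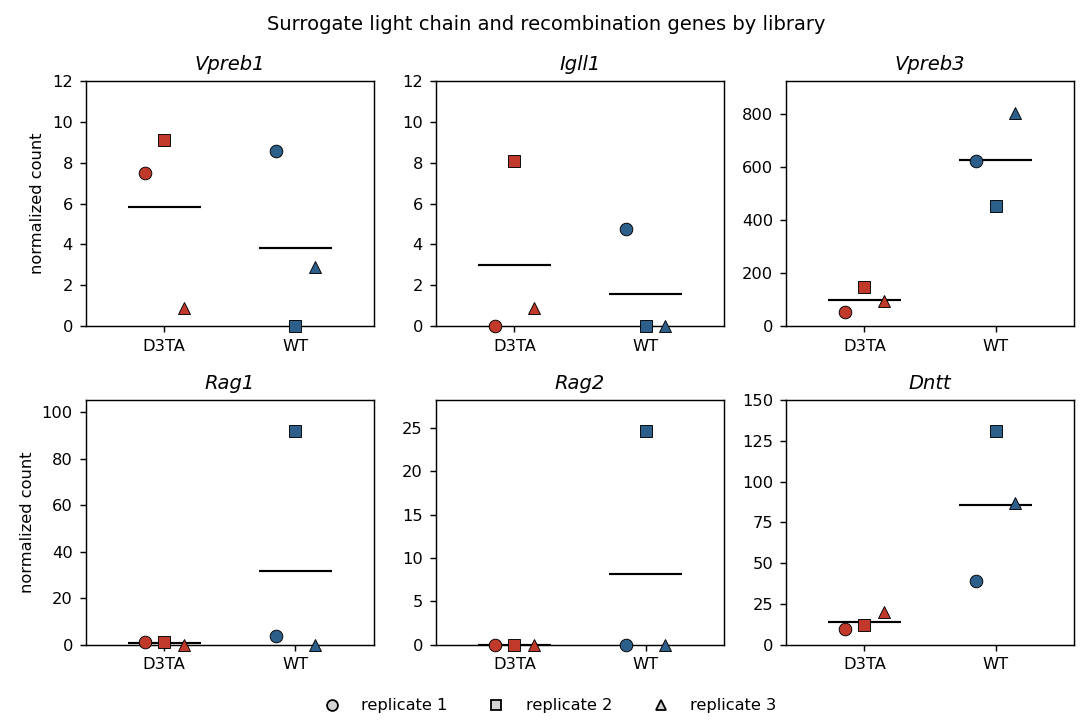
Normalized counts of the 6 genes (y axis, linear, its own range in each panel) in the 3 D3TA libraries (left, red) and the 3 WT libraries (right, blue). Symbols mark the replicate number and the bar the group mean. The groups separate for Vpreb3 and Dntt (as for 6.84% of tested genes, with D3TA lower) and overlap for the other 4, and WT-2 (blue square) carries 82 of the 86 WT reads of Rag1 and all reads of Rag2.

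The surrogate light chain genes were at the edge of detection in both groups. Vpreb1 (ENSMUSG00000059305, chromosome 16, 16868403 to 16870843, GRCm38) encodes the variable-like chain of the surrogate light chain. It had normalized counts of 7.50, 9.09 and 0.864 in the D3TA libraries, against 8.60, 0 and 2.90 in the WT libraries. The groups overlapped fully, with the highest values in D3TA-2 and WT-1. The means were 5.82 ± 4.36 in D3TA mice and 3.83 ± 4.37 in WT mice (SD, n = 3 each), a difference smaller than the spread within either group (exact permutation test of the means, 2-sided, p = 0.7, where 0.1 is the smallest p that 3 against 3 allows).

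Igll1 (ENSMUSG00000075370, chromosome 16, 16860671 to 16863985), the lambda5 gene, lies close to Vpreb1. It had 0, 8.08 and 0.864 in the D3TA libraries, against 4.78, 0 and 0 in the WT libraries. D3TA-2 and WT-1, which held the most Vpreb1, also held the most Igll1. The summed reads were 9 in D3TA and 5 in WT, with overlapping groups (exact permutation test, 2-sided, p = 0.7). A library without a read allows up to 3 reads, a normalized count of 2.59 to 3.36 depending on the library, counting error only. A difference in either gene of a few normalized counts was therefore not detectable at this depth.

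Vpreb1 reads carry a second uncertainty, the copy Vpreb2 (ENSMUSG00000059280, chromosome 16, 17980428 to 17981273), which was not analysed here. The coding sequences of Vpreb1 and Vpreb2, 426 bases each without the stop codon, differ at 9 bases and are 97.9% identical, with 196 identical bases in the longest run. The 120 coding bases where they differ most are shown because a short read from the identical runs fits both genes. They run from coding base 268 to 387, counted from the first base of the start codon in GENCODE M21 transcripts, and capitals mark the 6 bases that differ.
Vpreb1: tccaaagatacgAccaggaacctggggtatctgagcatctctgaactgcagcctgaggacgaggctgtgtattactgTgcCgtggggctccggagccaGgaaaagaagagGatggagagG
Vpreb2: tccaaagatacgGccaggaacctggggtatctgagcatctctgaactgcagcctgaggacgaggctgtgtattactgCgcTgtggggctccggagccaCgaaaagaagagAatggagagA
The Vpreb1 exons also share 108 bases with Top3b, a topoisomerase gene on the opposite strand that was at 437 to 798 in D3TA and 379 to 600 in WT. No strand-marking step is described, so reads of that stretch cannot be assigned to 1 of them.

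Vpreb3 was by far the most abundant of the 6 and was the member chosen for its lower values. Vpreb3 (ENSMUSG00000000903, chromosome 10, 75943057 to 75949657) had normalized counts of 51.4, 147 and 95.1 in the D3TA libraries, against 623, 451 and 802 in the WT libraries. The groups were far apart: the highest D3TA library held 147 and the lowest WT library 451. The D3TA mean of 98.0 ± 48.1 was 15.7% of the WT mean of 625 ± 176 (SD, n = 3 each). On the log2(normalized count + 1) scale the difference, D3TA minus WT, was -2.75 ± 0.44 (SE of the limma fit). Of the 15564 tested genes, 0.932% had a log2 difference of -2 or lower. Vpreb3, by its choice for lower values, and Dntt were both among them. Without D3TA-1 and WT-2 the log2 difference of Dntt was -1.84, above that limit. Between the libraries with a hemoglobin share over 5% (D3TA-1 and D3TA-2 against WT-3) the difference of Vpreb3 was -3.19, and between the others (D3TA-3 against WT-1 and WT-2) it was -2.47. Between the libraries with Y-linked transcripts (D3TA-3 against WT-1) it was -2.70, and between those without it was -2.77. Without D3TA-1 it was -2.35 and without WT-2 it was -2.96.

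The lower Vpreb3 level went along with lower transcripts of B cell receptor chains and of a B cell surface marker. Cd79a averaged 5685 ± 2557 in D3TA mice and 19901 ± 2939 in WT mice (SD, n = 3 each). Its partner Cd79b averaged 5392 ± 2998 in D3TA mice and 16265 ± 1650 in WT mice. Ms4a1, which encodes the B cell surface protein CD20, averaged 3777 ± 2344 in D3TA mice and 8949 ± 390 in WT mice. The mean log2 level of these 3 genes was 10.8, 12.7 and 12.6 in the D3TA libraries, against 13.8 in each of the WT libraries. Relative to that mean, Vpreb3 had log2 ratios of -5.12, -5.49 and -5.98 in the D3TA libraries, against -4.52, -4.97 and -4.14 in the WT libraries. The ratio was thus lower in each D3TA library than in any WT library, with a gap of 0.15 between the nearest libraries. Its mean was -5.53 ± 0.43 in D3TA mice and -4.54 ± 0.41 in WT mice (SD, n = 3 each), a difference of -0.99. Vpreb3 therefore lay lower by more than the mean of these 3 genes did. D3TA-1, where Vpreb3 and all 3 were lowest, had the highest ratio of the D3TA libraries. Relative to the 15 mature B cell markers the ratio averaged -4.08 ± 0.38 in D3TA and -2.51 ± 0.58 in WT. Vpreb3 was chosen for its lower values in these libraries, and that choice by itself favours a lower ratio in D3TA. The ratio is therefore a description and was not tested.

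**Figure D2:**
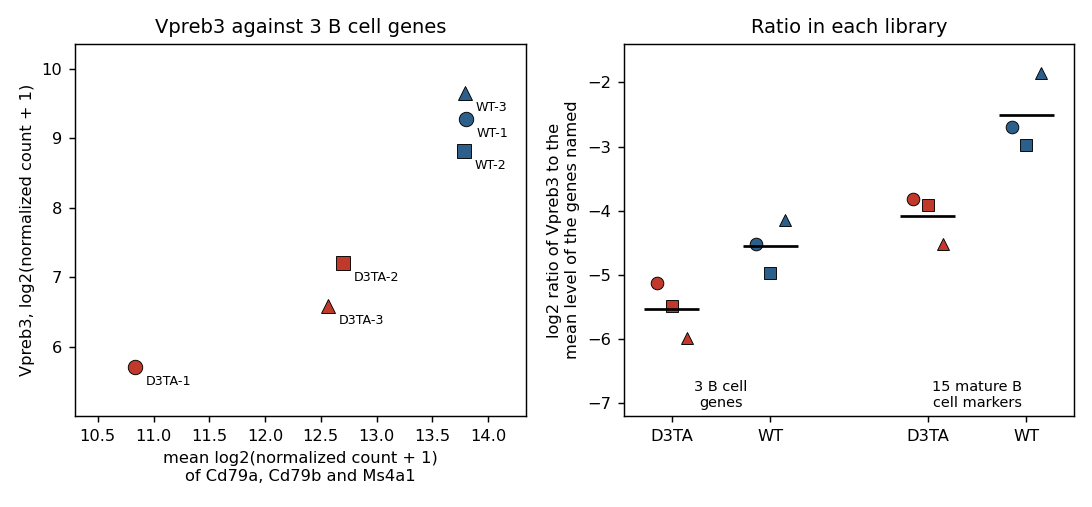
Left, Vpreb3 (y axis) against the mean of Cd79a, Cd79b and Ms4a1 (x axis), both as log2(normalized count + 1), 1 point per library. Right, the log2 ratio of Vpreb3 to the same 3 genes and to 15 mature B cell markers, D3TA (red) left of WT (blue) in each pair, with bars at the group means and symbols for the replicate number (circle 1, square 2, triangle 3). The WT libraries lie at 13.8 in these genes and differ in Vpreb3, and the D3TA ratios lie below all WT ratios.

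Dntt was the member next in abundance and was also lower in D3TA. Dntt (ENSMUSG00000025014, chromosome 19, 41029275 to 41059525) had normalized counts of 9.64, 12.1 and 19.9 in the D3TA libraries, against 39.2, 131 and 87.0 in the WT libraries. The groups did not overlap, and WT-2 was the highest library. The means were 13.9 ± 5.34 in D3TA mice and 85.7 ± 45.9 in WT mice (SD, n = 3 each). The log2 difference was -2.44 ± 0.67 (SE), a 5.43-fold lower level, with a limma adjusted p of 0.285 over all 15564 tested genes, so the difference did not pass the threshold of 0.05. Limma called 0 of the 15564 genes, 0% (1542 genes, 9.91%, had an unadjusted p under 0.05), and edgeR's quasi-likelihood test called 0 as well (1606 genes, 10.3%, at an unadjusted p under 0.05). Dntt's unadjusted p in limma was 0.00432. DESeq2 gave Dntt an adjusted p of 0.0119, where it called 2.61% of 15537 genes in either direction and 0.779% as lower in D3TA. Groups that do not overlap, lower in D3TA, were found for 6.84% of all tested genes.

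The size of the Dntt difference moved with the libraries used. Without WT-2 its log2 difference was -2.06, without WT-1 it was -2.92, and without both D3TA-1 and WT-2 it was -1.84. Over all alternatives run, its adjusted p ran from 0.0119 to 0.991. Between libraries with a hemoglobin share over 5% its difference was -2.90, and between the others it was -1.80. Between D3TA-3 and WT-1, the libraries with Y-linked transcripts, it was -0.94, and between the others -3.19. Relative to the same 3 genes, Dntt had log2 ratios of -7.42, -8.99 and -8.18 in the D3TA libraries, against -8.48, -6.74 and -7.33 in the WT libraries. Those ratios overlapped, since WT-1 lay below D3TA-1 and D3TA-3. The ratios of Vpreb3 did not overlap, but Vpreb3 was chosen for its lower values. The Dntt ratio was added after the values were seen.

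The recombinase genes were found in number in 1 library. Rag1 (ENSMUSG00000061311, chromosome 2, 101638282 to 101649501) had 1, 1 and 0 reads in the D3TA libraries, against 4, 82 and 0 reads in the WT libraries. As normalized counts these were 1.07, 1.01 and 0 in D3TA and 3.82, 91.8 and 0 in WT. Of the 86 WT reads, 82 were in WT-2, and no other library of either group had more than 4. The D3TA mean was 0.694 ± 0.602, against a WT mean of 31.9 ± 51.9 (SD, n = 3 each; exact permutation test, 2-sided, p = 0.4). Without WT-2 the WT mean was 1.91.

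Rag2 (ENSMUSG00000032864, chromosome 2, 101624718 to 101632529), which lies beside Rag1 on the opposite strand, followed the same pattern. It had 0 reads in each D3TA library, against 0, 22 and 0 reads in the WT libraries, a normalized count of 24.6 in WT-2. Every library but WT-2 was at 0, and no fold is given. The exact permutation test over the means gave p = 1.0 (2-sided). Both genes share exonic bases with B230118H07Rik, a protein-coding gene: 80 bases of Rag1 on the same strand and 208 of Rag2 on the other. B230118H07Rik was at 58.6 to 119 in D3TA and at 66.9, 126 and 129 in the WT libraries, so it was not high in WT-2 alone.

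WT-2 held the most Rag1, Rag2 and Dntt and had no read of Vpreb1 or Igll1. It had only 947 genes with 1 to 5 reads, so 0 reads of genes this low say little. Of the pro-B and pre-B cell markers, Il7r, Flt3, Bst1, Arpp21, Mme, Myb and Socs2 were highest among WT libraries in WT-2. Cd93, Cplx2, Sox4, Erg, Akap12, Cecr2 and Cd24a were highest in WT-1 or WT-3. Ptcra, the pre-T cell receptor alpha gene that marks thymocytes, which also use RAG and terminal transferase, had no read in WT-2 and was at 4.32 in D3TA-3 and at 0 in the other 4. The 12 thymocyte and T cell markers summed to 4039 to 11369 in D3TA, and to 15637 in WT-2, 15261 in WT-1 and 9418 in WT-3. The 8 markers of plasmacytoid dendritic cells summed to 4406 to 10972 in D3TA, and to 18899 in WT-2, 13592 in WT-1 and 20017 in WT-3. The 12 markers of stem and progenitor cells summed to 3684 to 13444 in D3TA, and to 5344 in WT-2, 4747 in WT-1 and 5664 in WT-3. For the last 2 lists the sum in WT-2 lay between those of the other WT libraries. The part of the sparse low counts of WT-2 in the Rag1 and Rag2 values was not tested.

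**Figure D3:**
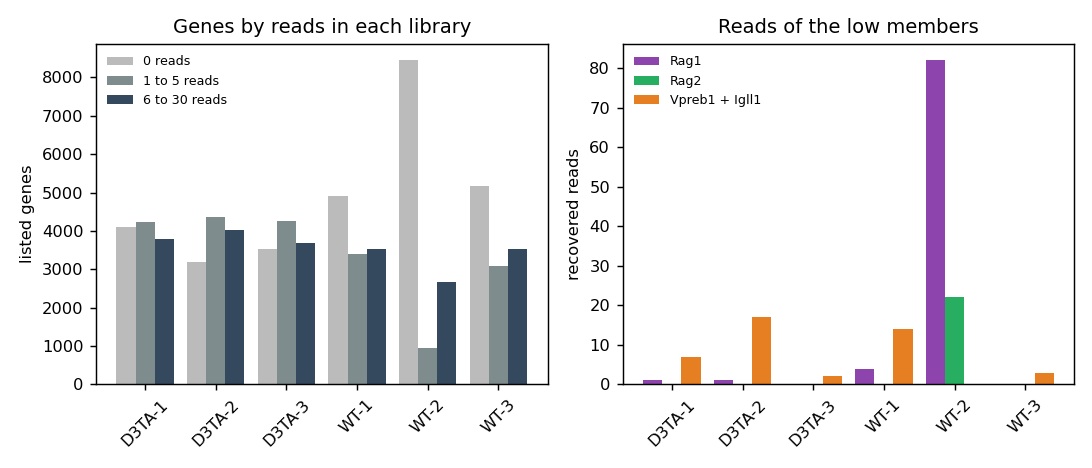
Left, the number of listed genes with 0, 1 to 5 and 6 to 30 recovered reads (bars, y axis) in each library, D3TA left and WT right. Right, recovered reads of Rag1, of Rag2 and of Vpreb1 and Igll1 together. WT-2 has the most genes at 0 and the fewest at 1 to 5 reads, and holds 82 reads of Rag1, 22 of Rag2 and 0 of the surrogate light chain.

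Per kilobase of exon, Vpreb3 had the highest level of the 6 genes in both groups. With lengths from GENCODE M21, the mean normalized count per kilobase in D3TA was 114 ± 56.0 for Vpreb3, 6.06 ± 2.33 for Dntt, 4.85 ± 3.64 for Vpreb1, 1.38 ± 2.05 for Igll1 and 0.105 ± 0.091 for Rag1 (SD, n = 3), with Rag2 at 0. In WT it was 728 ± 204 for Vpreb3, 37.4 ± 20.03 for Dntt, 4.82 ± 7.86 for Rag1, 3.20 ± 3.65 for Vpreb1, 2.40 ± 4.15 for Rag2 and 0.736 ± 1.27 for Igll1 (SD, n = 3). Vpreb3 stood above Dntt beyond their spread in both groups. In WT, Dntt stood above the remaining 4, which did not differ beyond their spread. In D3TA, Dntt and Vpreb1 did not differ beyond their spread, and Vpreb1 stood above Dntt in D3TA-1 and D3TA-2.

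Some other genes followed the same course over the 6 libraries as Vpreb3. The closest by Pearson r of log2(normalized count + 1) over the 6 libraries were Igkv10-94, an immunoglobulin kappa variable segment (r = 0.998), Eno3, an enolase gene (r = 0.994), and Stambpl1, a deubiquitinase gene (r = 0.992). Igkv10-94 was at 116, 327 and 220 in the D3TA libraries, against 1261, 901 and 1314 in the WT libraries. In all, 77 of the 15564 tested genes had an r of at least 0.95 with Vpreb3. For Cd79a it was 0.956, for Cd79b 0.947, for Ms4a1 0.862 and for Dntt 0.850. Among the genes most like Dntt were Txndc15 (r = 0.991) and Rab34, a small GTPase gene (r = 0.989), with 52 genes at 0.95 or more. These values describe 6 points that share the difference between the groups.

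The other genes of the pathway did not share 1 direction. No gene of any list below passed in limma, and the counts are therefore given beside those of all 15564 tested genes, of which 7078 lay below 0 and 8486 above, with a median log2 difference of 0.06. Of these, 6.84% had groups that did not overlap with D3TA lower, and 8.18% with D3TA higher.

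The enzymes that repair the cuts made by RAG did not move together. Of 14 genes of nonhomologous end joining and their DNA-bending partners, 5 lay below 0 and 9 above, with a median log2 difference of 0.15, and groups did not overlap for 1 (Dclre1c, which encodes the hairpin-opening nuclease Artemis, higher in D3TA). Hmgb2, a DNA-bending protein that assists RAG, averaged 15209 ± 6698 in D3TA mice and 7941 ± 2243 in WT mice (SD, n = 3 each), with overlapping groups and a limma adjusted p of 0.504. Xrcc4, the partner of DNA ligase IV, averaged 138 ± 34.7 in D3TA mice and 209 ± 53.7 in WT mice (limma adjusted p 0.655). DESeq2 called 0 of the 14.

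Components of pre-B and B cell receptor signalling lay lower throughout. All 14 genes lay below 0, with a median log2 difference of -0.61, and 5, Cd79a and Cd79b among them, had groups that did not overlap. Limma called 0 of the 14 (4 at an unadjusted p under 0.05) and DESeq2 called 2 as lower. Cd79a had a log2 difference of -1.92 ± 0.40 (SE, limma adjusted p 0.163) and Cd79b of -1.80 ± 0.46 (limma adjusted p 0.246). Without D3TA-1 and WT-2 the median was -0.28 and 12 of the 14 lay below 0.

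Among 16 transcription factors of the B lineage, 12 lay below 0, with a median of -0.50. Lef1, a factor of precursor B cells and naive T cells, was at 161, 245 and 240 in the D3TA libraries, against 1363, 1181 and 547 in the WT libraries (limma adjusted p 0.105). Ebf1, which encodes a factor that activates Vpreb1 and Igll1, was at 141, 488 and 244 in the D3TA libraries, against 1155, 1143 and 587 in the WT libraries (limma adjusted p 0.240). For both genes each D3TA library lay below each WT library, with WT-3 the nearest. Foxp1 was the remaining gene with groups that did not overlap. DESeq2 called 2 of the 16 as lower, and without D3TA-1 and WT-2 the list's median was -0.15.

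Markers of pro-B and pre-B cells other than the members did not share a direction. Of 14 in the table, 6 lay below 0 and 8 above, limma called 0 (1 at an unadjusted p under 0.05) and DESeq2 called 0. Their median was 0.18, but -0.07 in DESeq2, -0.14 without D3TA-3 and -0.22 without WT-3. Several of them also mark stem or myeloid progenitor cells. Myb, a factor of many blood progenitors, averaged 1035 ± 762 in D3TA mice and 374 ± 98.1 in WT mice, and Erg averaged 142 ± 27.1 in D3TA mice and 76.8 ± 35.5 in WT mice (SD, n = 3 each), with overlapping groups and limma adjusted p values of 0.472 and 0.543. Sox4 was the gene of this list whose groups did not overlap, with D3TA lower.

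Mature B cell markers lay lower as a whole. All 15 lay below 0, with a median of -1.34, and 10 had groups that did not overlap. Limma called 0 of them (11 at an unadjusted p under 0.05) and DESeq2 called 3 as lower. Ighd, the IgD constant gene, had a log2 difference of -1.73 ± 0.33 (SE) and Fcer2a, which encodes CD23, of -2.30 ± 0.44, with limma adjusted p values of 0.112 and 0.117. Without D3TA-1 and WT-2 the median was -0.71 and 12 lay below 0. The summed level of the 15 was 13994 to 40914 in D3TA and 53901 to 70904 in WT. The constant genes of the conventional light chains, which replace the surrogate in mature cells, also all lay below 0, and DESeq2 called 0 of them. Igkc, the most abundant of them, averaged 161381 ± 43730 in D3TA mice and 235630 ± 95134 in WT mice. Its groups overlapped, with a log2 difference of -0.50 (limma adjusted p 0.737). Of these 4, Iglc3 averaged 1323 ± 601 in D3TA mice and 2828 ± 25.9 in WT mice, and Iglc2 averaged 3860 ± 1816 in D3TA mice and 9183 ± 3088 in WT mice (SD, n = 3 each), with limma adjusted p values of 0.330 and 0.350. Reads of the lambda constant genes can be shared between close copies, so each of these values is uncertain.

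**Figure D4:**
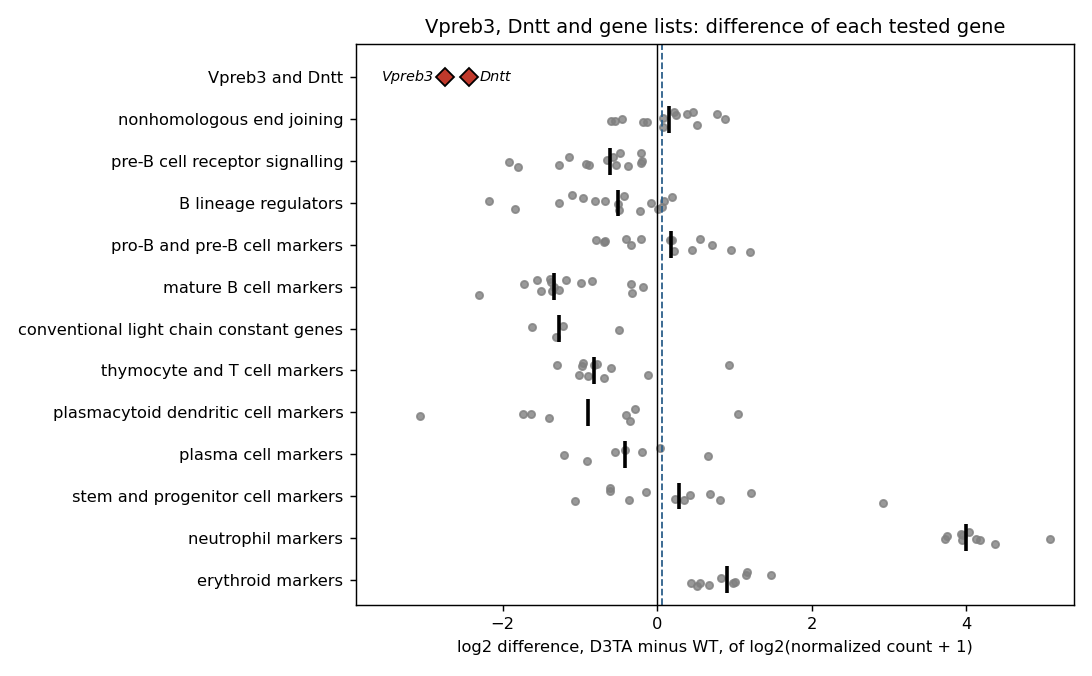
Log2 difference, D3TA minus WT (x axis), of Vpreb3 and Dntt (red diamonds) and of each tested gene of 12 lists (grey points, rows), with the list median as a black bar and the median of all 15564 tested genes, 0.06, as a dashed line. Vpreb3, chosen for its lower values, and Dntt lie at -2.75 and -2.44, left of the median of every list. Single list genes can lie as low, such as Klk1, a plasmacytoid dendritic cell marker, at -3.07. The neutrophil markers lie around 4.0.

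Markers of other cell types, some of which can hold these transcripts, mostly lay lower in D3TA, and limma called 0 of them. Of 11 tested thymocyte and T cell markers 10 lay below 0, with a median of -0.82 (-0.50 without D3TA-1, and -0.31 with 8 below 0 without D3TA-1 and WT-2). Satb1 averaged 655 ± 156 in D3TA mice and 1680 ± 666 in WT mice (limma adjusted p 0.285), and Tcf7 averaged 1362 ± 533 in D3TA mice and 2708 ± 981 in WT mice (limma adjusted p 0.444). Their summed level was 4039 to 11369 in D3TA and 9418 to 15637 in WT. Of 8 markers of plasmacytoid dendritic cells, which can carry Dntt and RAG transcripts, 7 lay below 0, with a median of -0.90 (-0.43 without D3TA-1, and -0.25 with 5 below 0 without D3TA-1 and WT-2). Klk1 averaged 11.4 ± 9.12 in D3TA mice and 88.0 ± 27.8 in WT mice (limma adjusted p 0.229), and Ly6d averaged 3805 ± 2312 in D3TA mice and 11079 ± 2548 in WT mice (limma adjusted p 0.275; Ly6d is also made by B cells). Their sum was 4406 to 10972 in D3TA and 13592 to 20017 in WT. In WT most of that sum was Ly6d, at 8367 to 13421, against 1483 to 6107 in D3TA. For Siglech, Bst2, Tcf4 and Cox6a2 the groups overlapped. Ccr9 and Klk1 lay lower in D3TA without overlap, and Runx2 lay higher without overlap. Of 7 plasma cell markers 5 lay below 0, with a median of -0.42 (0.02 without D3TA-1). Tnfrsf17 averaged 48.6 ± 15.3 in D3TA mice and 113 ± 34.5 in WT mice, and Jchain averaged 43379 ± 17276 in D3TA mice and 76921 ± 7814 in WT mice (limma adjusted p 0.458 and 0.479). The plasma cell sum was 30840 to 74442 in D3TA and 87324 to 98505 in WT. Most of it was Jchain, at 23773 to 56367 in D3TA and 68583 to 84077 in WT. For Xbp1, Prdm1, Sdc1, Mzb1 and Derl3 the groups overlapped. DESeq2 called 1 of the T cell markers and 2 of the plasmacytoid dendritic cell markers as lower in D3TA, and 0 of the plasma cell markers. The part of these cell types in the Vpreb3 and Dntt values was not tested.

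Neutrophil markers lay higher in D3TA, and erythroid markers overlapped between the groups. All 10 neutrophil markers lay above 0 with groups that did not overlap, at a median of 4.0, and their summed level was 82600 to 457524 in D3TA and 12486 to 28269 in WT. Mpo, the myeloperoxidase gene, and Elane, the neutrophil elastase gene, had log2 differences of 4.38 ± 0.55 and 3.95 ± 0.53 (SE, limma adjusted p 0.0945 for each), and DESeq2 called 9 of the 10 as higher. All 10 erythroid markers lay above 0, at a median of 0.90, with overlapping groups, and their summed level was 302632 to 1171540 in D3TA and 251246 to 1260110 in WT, highest in WT-3. Limma gave 0 of the 10 an unadjusted p under 0.05, and DESeq2 called 1 as higher. For Hbb-bt, a beta globin gene, the mean count was 82129 in D3TA and 89922 in WT although its log2 difference lay above 0. Without D3TA-1 and WT-2 that median was 0.09 and 5 lay below 0. Slc4a1, the red cell anion exchanger, averaged 20819 ± 20491 in D3TA mice and 5012 ± 1079 in WT mice, and Tfrc, the transferrin receptor, averaged 14476 ± 12424 in D3TA mice and 5085 ± 2343 in WT mice (limma adjusted p 0.527 and 0.599). Of 12 stem and progenitor cell markers 7 lay above 0 and 5 below, with a median of 0.29 (0.09 without D3TA-1). Hoxa9 was at 51.4, 19.2 and 14.7 in the D3TA libraries, against 2.87, 8.95 and 0 in the WT libraries (limma adjusted p 0.445), and Tal1 averaged 3324 ± 3442 in D3TA mice and 941 ± 194 in WT mice (limma adjusted p 0.597). With library size as the scaling the log2 difference was -2.66 for Vpreb3 and -2.36 for Dntt. Normalized counts are levels relative to the other transcripts of a library. The part of the higher myeloid transcripts in the lower B lineage values was not tested.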

How the data were processed

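RNA of spleen cells from 3 D3TA and 3 WT mice was sequenced, 1 library per mouse. Per the submitters' processing notes, the build was mm10 and the tools were HISAT2, Trim Galore, FastQC, CASAVA and DESeq2. The counting program, annotation and strand setting are not given in the sources used here. The deposited values are a signal: in each library all are whole multiples of 1 step (0.864 to 1.12), so the authors had divided reads by a size factor, on the evidence of the values. Reads recovered with that step were whole, within 0.001, for 100% of 149436 values. The lowest total of a listed gene over the 6 libraries was 2 reads. The GENCODE M21 annotation (GRCm38) held 24860 of 24906 identifiers.

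Genes that reached 10 in 3 or more libraries were tested with limma 3.58.1 (trend, robust) on log2(value + 1), genotype as the only factor, with Benjamini-Hochberg adjustment at 0.05, 2-sided. Count tests on recovered reads (edgeR 4.0.16, DESeq2 1.42.0, limma-voom) and other scalings, filters, pseudocounts, library terms and left-out libraries were alternatives. The log2(value + 1) scale understates the change of low genes. Simulated counts with known changes served to check the test.

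The members and lists were chosen with earlier results of these data known. Named are the 6 members, Vpreb2, Ccnd3, 3 ratio genes, the 2 genes of each list with the smallest p in limma and the 3 genes most like each tested member. Any gene beyond these, Top3b, B230118H07Rik, Ptcra and the genes whose groups did not overlap among them, was named after its values were seen. The planned ratio had 1 further gene, which is not reported here, as is 1 gene most like Dntt; the ratio over the 3 left was chosen after seeing the data. No amino acid sequences are printed. R 4.3.3, Python 3.11.15 and matplotlib 3.10.9 were used.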

Additional observations from a re-analysis of the deposited data

How the results depend on the processing

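Among the 21 alternatives, the count of genes past the threshold, 0 in limma, became 44 with no filter on low values, 3 with a minimum of 1 in 2 libraries, 405 with DESeq2, 15 with presence of Y-linked reads as a term and 11 with a term for a high hemoglobin share. Leaving out single libraries gave 0 to 306, the highest without D3TA-3. The count of listed pathway and marker genes past it, also 0, became 6, 2, 20, 7 and 6 under the same settings and 0 to 18 with single libraries left out (18 without D3TA-3). The count among the 6 members, 0, became 1 with no filter (Vpreb3) and 2 with DESeq2 (Vpreb3 and Dntt), and 0 to 1 with single libraries left out (Vpreb3 without D3TA-3). Vpreb3 was picked for its values, so its calls are no support.

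The log2 difference of Vpreb3 ran from -3.10 to -2.35 and that of Dntt from -2.92 to -1.84 over all alternatives. The difference in the ratio of Vpreb3 to 3 B cell genes, -0.99, was -1.57 against the mature B cell markers and ran from -1.20 to -0.76 with single libraries left out.

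Replicate numbers shared by the groups did not pair the libraries: the deviations from the group means of same-numbered libraries correlated at -0.06, -0.00456 and -0.13. With the replicate number as a block limma called 0 genes, and Dntt had an adjusted p of 0.313. The other 4 members were too low for the test, and depth limits what can be said of them.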
